A study of Mus musculus with 6 samples.

Results

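Txnip, the arrestin-domain genes Arrdc1 to Arrdc4 and the glucose-sensing transcription factor genes Mlxip and Mlxipl were followed in irradiated NIH3T3 cells. These 7 genes were chosen by name from the 21878 genes of the deposited table, and Txnip was named in that choice because its rise was among the largest between the groups. Its values in this comparison are therefore described without a test, and the other members were chosen with earlier results of these data known. In the table they carry the Entrez identifiers 56338 (Txnip), 215705 (Arrdc1), 70807 (Arrdc2), 105171 (Arrdc3), 66412 (Arrdc4), 208104 (Mlxip) and 58805 (Mlxipl). NIH3T3 is an immortalised line of mouse embryo fibroblasts. All 6 libraries carry the label of radiation injury and the 72 h time point. In 3 of them the cells were treated with exosomes, which the series title calls plasma-derived, and in the other 3 with phosphate-buffered saline (PBS). The labels give neither the radiation dose nor the species of the plasma, and an unirradiated group was not analysed here. Nor do they say that replicates were separate cultures, so p-values speak only for the spread among these 6 libraries, and that spread may be technical.

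Txnip encodes thioredoxin-interacting protein, an alpha-arrestin that binds reduced thioredoxin and restrains glucose uptake by driving glucose transporters off the cell surface. The other alpha-arrestins, encoded by Arrdc1 to Arrdc4, are adaptors that bring HECT ubiquitin ligases of the NEDD4 family to membrane proteins. Mlxip encodes MondoA and Mlxipl encodes ChREBP, which pair with Mlx, sense glucose phosphates and act through carbohydrate response elements, a pair of E-box-like sites. Txnip and Arrdc4 are the best known targets of MondoA.

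Promoter sequences were examined for all 7 members, with 10 start sites in the RefSeq table of build GRCm38.p6. The 250 bases before the start are shown for Txnip and Arrdc4, as the members known to respond to MondoA, and for Arrdc3, the member that fell. The windows lie at chr3:96557707-96557956 on the + strand for Txnip, chr7:68749239-68749488 on the - strand for Arrdc4 and chr13:80883134-80883383 on the + strand for Arrdc3. Each is printed 5′ to 3′ in the direction of the gene and ends at the base before the start. Capitals mark the E-box CACGTG, its variant CACGAG, a spaced pair (CACGNG, then 5 bases of any kind, then CACGNG) and the CCAAT box bound by NF-Y, each searched on both strands.
Txnip: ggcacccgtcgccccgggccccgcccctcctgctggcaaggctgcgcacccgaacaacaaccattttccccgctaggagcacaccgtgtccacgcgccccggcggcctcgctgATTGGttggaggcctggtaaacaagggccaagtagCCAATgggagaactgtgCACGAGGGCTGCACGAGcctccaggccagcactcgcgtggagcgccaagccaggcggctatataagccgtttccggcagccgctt
Arrdc4: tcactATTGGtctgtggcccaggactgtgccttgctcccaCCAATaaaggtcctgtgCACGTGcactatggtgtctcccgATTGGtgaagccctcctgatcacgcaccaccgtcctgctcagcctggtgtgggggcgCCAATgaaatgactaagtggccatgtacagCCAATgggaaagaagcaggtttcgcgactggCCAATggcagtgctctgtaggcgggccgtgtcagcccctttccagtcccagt
Arrdc3: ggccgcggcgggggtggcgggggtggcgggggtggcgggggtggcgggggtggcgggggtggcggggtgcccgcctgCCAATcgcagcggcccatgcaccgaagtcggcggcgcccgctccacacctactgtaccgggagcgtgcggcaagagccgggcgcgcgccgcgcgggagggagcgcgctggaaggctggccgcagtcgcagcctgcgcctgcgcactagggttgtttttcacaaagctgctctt
The Txnip window held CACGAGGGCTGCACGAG, a match to the spaced pair, from -85 to -69. Both CACGAG matches of that window are the ends of this pair. Of 32851 promoter windows of the same length, 15 held such a pair, which is 0.0457%. Among the members the pair was found in the Txnip window alone. Only this form of the pair, with both sites facing the same way, was searched. Its share therefore does not give that of carbohydrate response elements, and a window without it may hold one of another form. Its window also held 2 CCAAT boxes, from -137 to -133 and from -102 to -98. The Arrdc4 window held an E-box from -193 to -188, a motif found in 6.02% of windows, and 6 CCAAT boxes. The Arrdc3 window, at the first of its 3 start sites, held a CCAAT box and no match to the other motifs. CACGAG was found in 5.37% of windows and CCAAT in 33.8%. A CACGAG match was also present in the window of Arrdc2, and 2 were present in that of Arrdc1. Of the 2 Mlxipl start sites, the upstream window held a CACGAG from -196 to -191, an E-box from -98 to -93 and a CCAAT box, and the other held none of the motifs. The Mlxip window held 2 CCAAT boxes and that of Arrdc2 3.

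**Figure D1:**
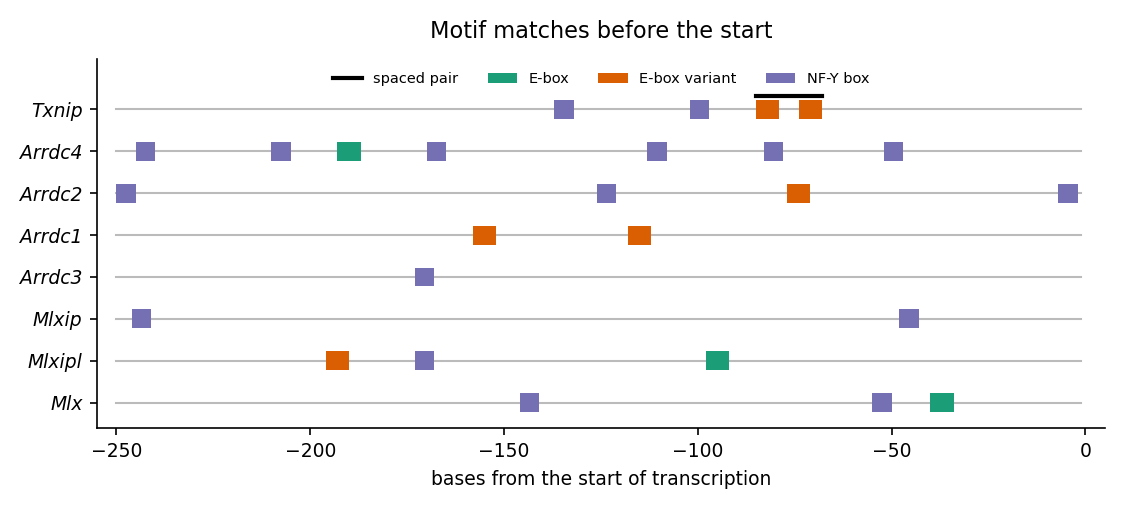
Motif matches in the 250 bases before the start of the 7 members and Mlx, in bases from the start (horizontal axis), 1 line per gene at 1 start site each. Boxes mark the E-box CACGTG, its variant CACGAG and the CCAAT box of NF-Y, and the black bar marks the spaced pair, drawn for Txnip from -85 to -69.

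In each library between 10080 and 10271 genes reached 1 FPKM (fragments scaled to transcript length and library size), and the authors' mean normalized counts sum to 20341541 for PBS and 19824812 for exosomes in the authors' deposited table. All 10 fibroblast markers reached 1 FPKM in at least 3 libraries, and their sum was 5940 to 6190 FPKM with PBS and 6770 to 7050 with exosomes. At a limma adjusted p under 0.05, 4 of them rose and 3 fell, beside 25.4% and 18.4% of all genes tested. S100a4, among those that fell, had overlapping groups. The leukocyte markers Cd3e and Fcgr3 were listed at 0 in every library, and the summed level of the 10 genes of that list was 7.34 to 11.9 FPKM with PBS and 4.46 to 5.28 with exosomes. The 9 platelet and erythroid markers summed to 3.42 to 5.31 FPKM with PBS and 4.52 to 5.11 with exosomes. The megakaryocyte integrin gene Itga2b, the only tested gene of that list, was at 1.57, 2.36 and 1.77 FPKM with PBS and 2.93, 2.70 and 2.76 with exosomes (log2 change 0.40 ± 0.10, limma adjusted p = 0.00862), and its part in the members' differences was not tested. Ppbp of the same list, which was not tested, was at 0.980, 2.07 and 0.858 FPKM with PBS and 1.25, 0.574 and 0.817 with exosomes. Its mean thus moved the other way, with overlapping groups, and Gp9 was listed at 0 in every library. The 5 endothelial and 6 keratinocyte and epithelial markers summed to at most 0.535 and 0.655 FPKM.

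Txnip was the member that differed most. PBS libraries 1, 2 and 3 held it at 10.5, 17.1 and 6.79 FPKM, and exosome libraries 1, 2 and 3 at 27.9, 34.2 and 41.3 FPKM. Every exosome library was above every PBS library, and PBS replicate 3 was the lowest and PBS replicate 2 the highest of its group. The means were 11.5 ± 5.23 FPKM (SD, n = 3) with PBS and 34.5 ± 6.73 with exosomes, a ratio of 3.01. The log2 change was 1.58 ± 0.34 (SE) on the log2(FPKM + 1) scale, on which changes of low genes are understated. By this change Txnip ranked 5 of the 10274 genes tested, those with at least 1 FPKM in 3 or more libraries. Groups that did not overlap were common, at 55.6% of tested genes. In the authors' deposited table Txnip had a mean normalized count of 847 for PBS and 2460 for exosomes, a fold of 2.90. As these are bulk samples, more cells with high Txnip and more Txnip RNA per cell cannot be told apart.

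The spread of Txnip within the groups was also large. The highest PBS library was 2.52 times the lowest, and the highest exosome library was 1.48 times the lowest. The SD of log2(FPKM + 1) was 0.61 in PBS, above that of 99.9% of 1993 genes whose mean level lay within 0.5 on the log2 scale. In exosome libraries it was 0.28, above 99.5% of the same genes. The change was 1.89 without PBS replicate 2 and 1.28 without PBS replicate 3, which were the highest and lowest values when each library was left out in turn. The leukocyte markers Csf1r and Cd14 varied across the PBS libraries as well. Csf1r, a macrophage receptor gene, was at 1.77, 0.759 and 3.22 FPKM with PBS, so it was highest where Txnip was lowest, and at 0.381, 0.254 and 0.249 FPKM with exosomes. This gene was not tested in limma, and in the authors' deposited table its fold was 0.141, with an adjusted p of 0.039. Cd14, which had the highest level of the leukocyte list, was at 4.15, 3.68 and 7.10 FPKM with PBS and 3.43, 2.39 and 1.99 with exosomes. Cd14 was called lowered (log2 change -0.71 ± 0.23, limma adjusted p = 0.0388), a call absent from the authors' deposited table (adjusted p = 0.142). Cd68, the other tested gene of that list, was at 1.54, 2.64 and 1.53 FPKM with PBS, so it was highest where Txnip was highest. With exosomes Cd68 was at 1.44, 1.91 and 2.08 FPKM (limma adjusted p = 0.878). Ptprc and Lyz2, below 1 FPKM in every library, were also highest in PBS replicate 2 among the PBS libraries. The leukocyte markers thus did not share a pattern, and the part of leukocyte RNA in the Txnip difference was not tested. In GENCODE M21 the antisense gene Gm15441 covers the whole of Txnip on the opposite strand. The library kit keeps strand, but the use of strand in counting is not given in the sources, so reads of Gm15441 and Txnip cannot be told apart. Gm15441 itself was not analysed here.

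**Figure D2:**
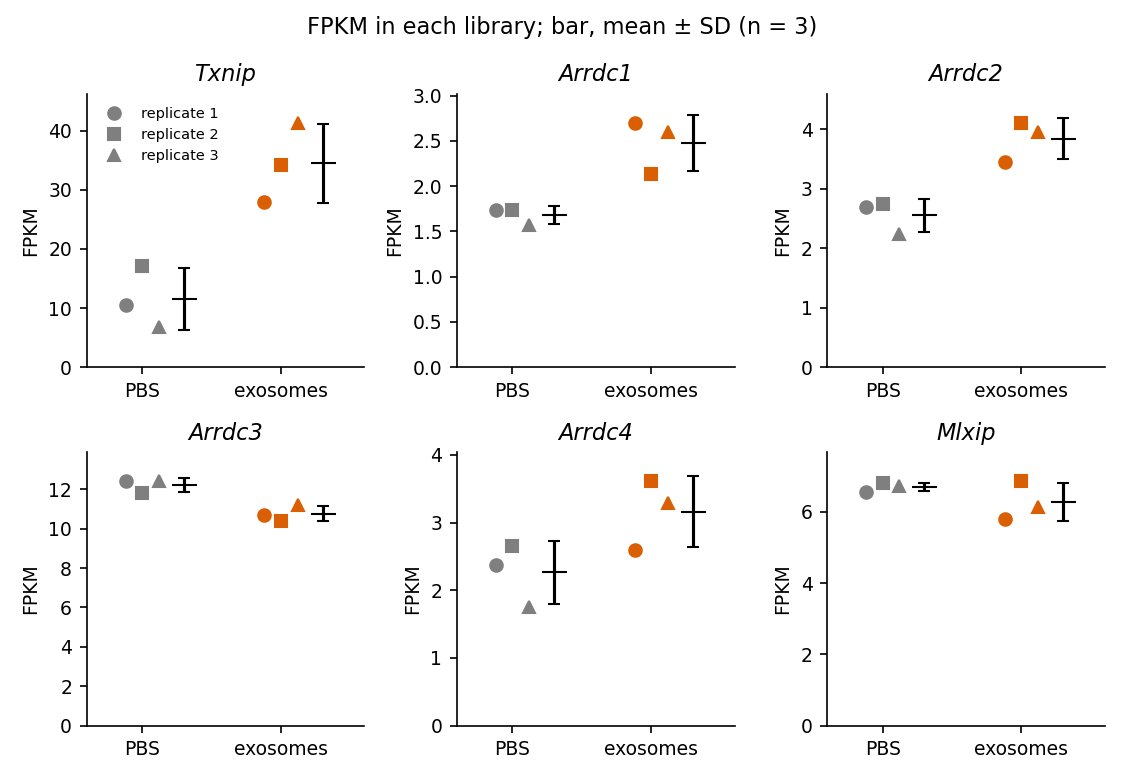
FPKM (vertical axis, from 0) of the 6 tested members in each PBS library (grey) and exosome library (orange), with the group mean and SD beside the points. The groups lie apart for Txnip, Arrdc1, Arrdc2 and Arrdc3 and overlap for Arrdc4 and Mlxip.

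Of the 5 tested members other than Txnip, 3 rose, 1 fell and 1 did not pass an adjusted p of 0.05 (limma on log2(FPKM + 1), Benjamini-Hochberg over all genes tested). Across all genes tested 25.4% were raised and 18.4% lowered, 43.8% in all, so calls of this kind were common. Of 15844 genes with an adjusted p in the authors' deposited table, 25.9% passed (1966 raised and 2140 lowered, against 2612 and 1889 in limma), and among the members Arrdc2 and Arrdc3 passed while Arrdc1, Arrdc4 and Mlxip did not. The changes of Arrdc1, Arrdc2 and Arrdc4 lay between 0.35 and 0.44, against 1.58 for Txnip and a median of 0.036 over all genes tested.

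Arrdc4, the closest relative of Txnip in its regulation by glucose, was at 2.37, 2.66 and 1.76 FPKM across the PBS libraries in replicate order and at 2.59, 3.61 and 3.29 FPKM across the exosome libraries. Exosome replicate 1 lay below PBS replicate 2, so the groups overlapped. The mean rose from 2.26 ± 0.462 to 3.16 ± 0.521 FPKM, by 0.35 ± 0.12 on the log2 scale (limma adjusted p = 0.0397). The call lay close to the threshold. It ended without PBS replicate 1 (adjusted p = 0.0763), PBS replicate 3 (0.103), exosome replicate 2 (0.135) or exosome replicate 3 (0.109), and without the filter on low values (0.0973). Without PBS replicate 3 the change was 0.24. In the authors' deposited table the fold was 1.40, with mean normalized counts of 228 and 319 and an adjusted p of 0.0758. As for Txnip and Arrdc2, PBS replicate 3 was the lowest and PBS replicate 2 the highest PBS library. With exosomes the order differed, as Txnip was highest in replicate 3 and Arrdc4 in replicate 2. For Arrdc4 the SD of log2(FPKM + 1) was 0.21 with PBS and 0.19 with exosomes. These values lay above 93.2% and 93.7% of 1942 genes of like level, so Arrdc4 also varied more within its groups than most such genes. For Arrdc3 these SDs were 0.04 and 0.05.

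Arrdc2, an alpha-arrestin that is less studied, was at 2.69, 2.74 and 2.24 FPKM with PBS and at 3.45, 4.11 and 3.96 FPKM with exosomes. All 3 exosome libraries were higher than all 3 PBS libraries. The mean rose from 2.56 ± 0.275 to 3.84 ± 0.348 FPKM, a ratio of 1.5 and a log2 change of 0.44 ± 0.08 (limma adjusted p = 0.00211). Arrdc2 is the member whose call was kept under all 13 alternatives tried, with adjusted p between 0.00178 and 0.0122. In the authors' deposited table its fold was 1.39, with an adjusted p of 0.00907.

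Arrdc1, which recruits the ESCRT protein Tsg101 to the plasma membrane and drives budding of small vesicles there, was at 1.74, 1.74 and 1.57 FPKM with PBS. With exosomes it was at 2.70, 2.13 and 2.60 FPKM, and the groups did not overlap. The mean rose from 1.68 ± 0.0964 to 2.48 ± 0.305 FPKM, a log2 change of 0.37 ± 0.08 (limma adjusted p = 0.00481). The authors' deposited table gives a fold of 1.36 from mean normalized counts of 73.7 and 100, with an adjusted p of 0.1, so the call is absent there.

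Arrdc3, an adaptor reported to act on the beta-2 adrenergic receptor and integrin beta 4, moved the other way. It was at 12.4, 11.8 and 12.4 FPKM with PBS and 10.7, 10.4 and 11.2 with exosomes, without overlap. The mean fell from 12.2 ± 0.352 to 10.8 ± 0.410 FPKM, a log2 change of -0.17 ± 0.05 (limma adjusted p = 0.0243). The call ended without PBS replicate 1 (adjusted p = 0.0812), PBS replicate 3 (0.067), exosome replicate 1 (0.064) or exosome replicate 2 (0.0819). In the authors' deposited table the fold was 0.859, with an adjusted p of 0.0133. The gene 1700023H06Rik overlaps Arrdc3 on the opposite strand in GENCODE M21.

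**Figure D3:**
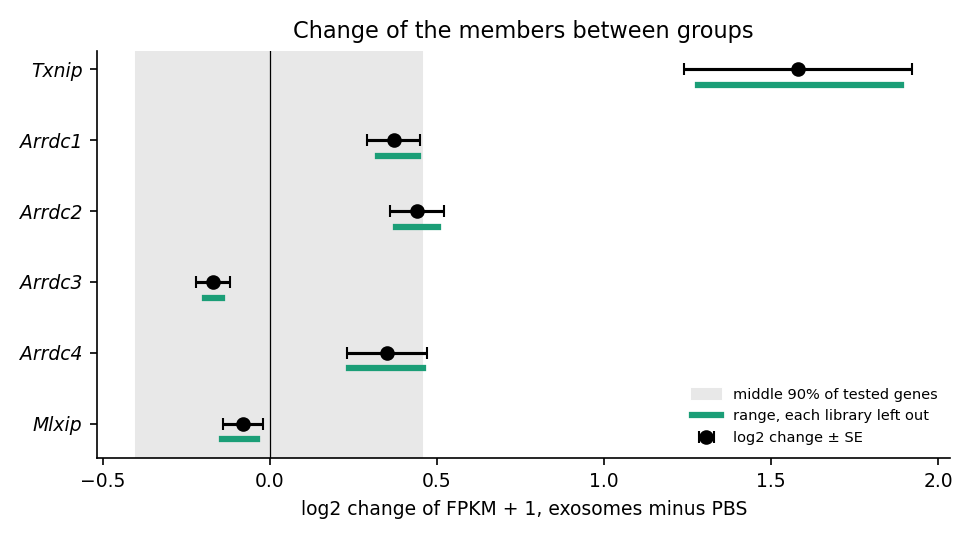
Change of the tested members on the log2(FPKM + 1) scale, exosomes minus PBS (horizontal axis), with SE (points and bars) and, in green, the range over the 6 fits that each leave out 1 library. The grey band holds the middle 90% of all genes tested, from -0.40 to 0.46, and only the point of Txnip, chosen for its rise, lies outside it. The SE bars and left-out ranges of Arrdc2 and Arrdc4 also reach past its upper edge.

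The MondoA gene Mlxip did not pass the test. It was at 6.57, 6.80 and 6.73 FPKM with PBS and at 5.81, 6.86 and 6.14 FPKM with exosomes. Exosome replicate 2 was the highest of all 6 libraries, and the log2 change was -0.08 ± 0.06 (limma adjusted p = 0.302). The authors' deposited table gives it a fold of 0.896 and an adjusted p of 0.114. Mlxip is overlapped in GENCODE M21 by the antisense gene Gm15747 and, on its own strand, by Gm42907, Gm42908 and Gm43813. Mlxipl was listed at 0.0116 FPKM in PBS replicate 1 and at 0 in the other 5 libraries, and it was not tested. Its mean normalized counts in the authors' deposited table were 0.337 for PBS and 0.300 for exosomes. The shared partner Mlx was at 11.7 ± 0.123 FPKM with PBS and 11 ± 0.401 with exosomes (log2 change -0.08 ± 0.05, limma adjusted p = 0.223).

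Levels in FPKM, which are scaled to length, ordered the members differently in the 2 groups. With PBS, Arrdc3 and Txnip were highest and their ranges overlapped, and Mlxip followed, its range just reaching that of Txnip. Arrdc2 and Arrdc4 came next, with overlapping ranges, then Arrdc1 and, near 0, Mlxipl. With exosomes Txnip was above all others without overlap, at 34.5 FPKM against 10.8 for Arrdc3. Mlxip followed, then Arrdc2, Arrdc4 and Arrdc1, whose ranges overlapped between neighbours.

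The genes whose profiles over the 6 libraries lay nearest to Txnip, by the root mean square distance of log2(FPKM + 1) centred on each gene's mean, were Nid2, Lrrc17, Mfap4, Sulf2 and Phyhd1. Their distances were 0.187 to 0.282, against a median of 0.862 over all genes tested. Nid2 encodes the basement membrane protein nidogen 2, Mfap4 a microfibril-associated glycoprotein and Sulf2 an extracellular heparan sulfate sulfatase. Nid2 was at 12.8, 17.3 and 10.1 FPKM with PBS and 42.1, 46.4 and 49.6 with exosomes. In all 5 genes PBS replicate 2 was the highest and PBS replicate 3 the lowest of the PBS libraries, as in Txnip. The nearest member was Arrdc2, at a distance of 0.650, followed by Arrdc4 at 0.665. These genes were selected for likeness that includes the group difference, so no test of that difference is given for them.

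Nearest to Arrdc4 were Kank3, Disp1, Mturn, Ramp2 and Gnpda2, at distances of 0.0504 to 0.0641 against a median of 0.243. Gnpda2 encodes a glucosamine-6-phosphate deaminase, Disp1 a protein that releases Hedgehog ligands and Ramp2 a receptor activity-modifying protein. Arrdc2 was again the nearest member, at 0.0873, and ranked 25 of the 10274 genes tested, while Txnip ranked 10170, at 0.665. The distance is not scaled for the size of a gene's changes. Genes of unlike change, as Txnip at 1.58 and Arrdc4 at 0.35, therefore lie far apart even where their libraries run in a like order.

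**Figure D4:**
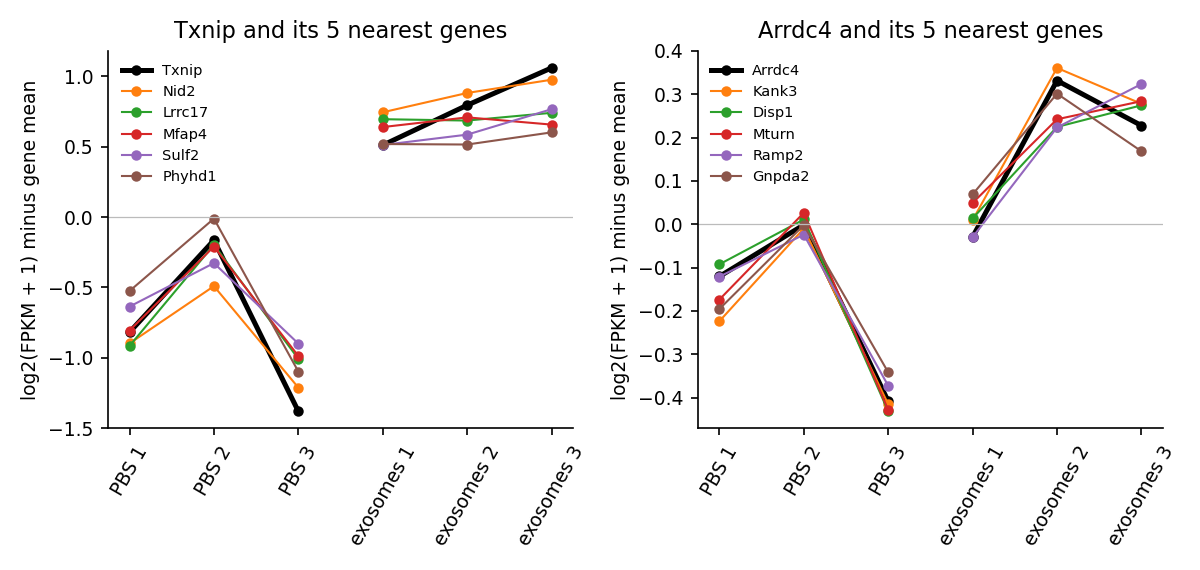
log2(FPKM + 1) minus the gene's own mean (vertical axis) in each library for Txnip (left) and Arrdc4 (right), in black, with the 5 genes nearest to each in colour. Lines only join the points of a gene within a group, and PBS replicate 3 is the lowest PBS library in each of the genes drawn.

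Other genes of the pathway were described from lists chosen by name, by counts in the fit over all genes. Over all genes tested 25.4% were raised and 18.4% lowered, and each list's counts stand beside those shares. Of the 9 raised genes of these lists 6 missed an adjusted p of 0.05 in the authors' deposited table, and of the 26 lowered ones 0 did. The 9 include Fgf21, which met the filter on low values only through the exosome libraries. Of 17 targets reported for MondoA or ChREBP, beside Txnip and Arrdc4, 14 were tested, of which 3 rose, 6 fell and 5 did not pass, with a median log2 change of -0.11. The raised share, with Fgf21 counted, was near that over all genes, and the lowered share was above it. These shares were not tested. The list does not separate targets of MondoA from those of ChREBP, whose gene Mlxipl was near 0 in these libraries. The genes of smallest p all fell, namely the hexokinase gene Hk2 (-1.70 ± 0.05, limma adjusted p = 1.85e-07), Slc2a1, Ldha and Rgs16. Slc2a1, the main glucose transporter gene, fell by 1.14 ± 0.05 on the log2 scale and Ldha, for lactate dehydrogenase A, by 1.01 ± 0.04 (limma adjusted p = 6.9e-07 for each). Rgs16, a regulator of G protein signalling, went from 20.3 ± 2.22 to 9.12 ± 0.624 FPKM (-1.07 ± 0.08, limma adjusted p = 1.27e-05). The 3 called raised were Fgf21, Khk and Scd1. Fgf21, a metabolic hormone gene, was at 0.530, 0.112 and 0.746 FPKM with PBS and 1.80, 1.41 and 1.63 with exosomes. It met the filter on low values only through the exosome libraries, so its call is no independent support and no p is given. Khk, the fructokinase gene, was at 1.90 ± 0.066 and 2.49 ± 0.210 FPKM (limma adjusted p = 0.0115), and the call is absent from the authors' deposited table (adjusted p = 0.142). The Scd1 call had a limma adjusted p of 0.0246 and was likewise absent from the authors' deposited table (adjusted p = 0.183). It was lost with no filter (0.0578), with the replicate block (0.0513) and without PBS replicate 1 (0.0769), PBS replicate 2 (0.0707), exosome replicate 1 (0.0921) or exosome replicate 2 (0.0585). Pfkfb3 did not pass in limma (adjusted p = 0.07) but was lowered in the authors' deposited table (fold 0.761, adjusted p = 0.00291). Gpd1, too low for the limma test, was also lowered there (fold 0.361, adjusted p = 0.0242).

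Of 10 genes of glucose uptake and phosphorylation, 4 were tested, 3 fell and 1 rose, with a median of -0.81. Hk2 and Slc2a1 stand in both lists. Hk1, the constitutive hexokinase gene, fell from 15.4 ± 0.272 to 10.8 ± 0.384 FPKM (-0.48 ± 0.05, limma adjusted p = 7.88e-05). Slc2a8, an intracellular glucose transporter gene, went from 3.21 ± 0.240 to 4.23 ± 0.631 (limma adjusted p = 0.0196), a call that ended without the filter on low values (0.0533), without PBS replicate 1 (0.052), PBS replicate 3 (0.0537) or exosome replicate 3 (0.0637). Its adjusted p was 0.0717 in the authors' deposited table. Slc2a4, whose product is a known cargo of Txnip, was at 0.0477 ± 0.0365 and 0.112 ± 0.0762 FPKM and was not tested.

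In the thioredoxin system, which Txnip binds and inhibits, 5 of 12 tested genes fell, 2 rose and 5 did not pass, with a median of 0.04. Txn1, the cytosolic thioredoxin that Txnip binds, was at 253, 247 and 242 FPKM with PBS and 184, 188 and 220 with exosomes, without overlap (log2 change -0.33 ± 0.07, limma adjusted p = 0.00406). Its reductase gene Txnrd1 fell from 68.1 ± 5.90 to 39.6 ± 2.30 FPKM (-0.76 ± 0.07, limma adjusted p = 3.76e-05) and the peroxiredoxin gene Prdx1 from 477 ± 20.9 to 313 ± 7.75 (limma adjusted p = 2.35e-05). Srxn1, the sulfiredoxin gene, fell from 57.5 ± 2.92 to 35.4 ± 1.37 FPKM (limma adjusted p = 1.21e-05). Of the mitochondrial members, Txn2 was at 54.0 ± 1.64 and 55.8 ± 1.92 FPKM (limma adjusted p = 0.418), and Prdx3 rose from 50.8 ± 2.64 to 63.0 ± 2.99 (limma adjusted p = 0.00167).

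Among the HECT ligases and Ndfip adaptors that work with alpha-arrestins, 3 of 9 tested genes fell, 1 rose and 5 did not pass, with a median log2 change of -0.12. Nedd4l, which ubiquitinates membrane channels, fell from 5.41 ± 0.113 to 3.54 ± 0.253 FPKM (-0.50 ± 0.06, limma adjusted p = 0.000255), and Smurf1 and Smurf2, ligases of TGF-beta signalling, fell by 0.33 ± 0.05 and 0.31 ± 0.06 on the log2 scale (limma adjusted p = 0.00124 and 0.00246). Wwp2, a partner of Arrdc1, rose from 8.01 ± 0.274 to 9.33 ± 0.140 FPKM (limma adjusted p = 0.0106), but its fold of 1.09 in the authors' deposited table did not pass (adjusted p = 0.242). Itch, the ligase that marks the Txnip protein for degradation, was at 16.3 ± 0.343 and 16.4 ± 0.429 FPKM (log2 change 0.01 ± 0.05, limma adjusted p = 0.844). Of the 9 genes of the ESCRT machinery listed for Arrdc1 vesicle budding, 4 fell, 1 rose and 4 did not pass, with a median of -0.10. Vps37b, an ESCRT-I subunit, fell from 16.5 ± 1.47 to 9.49 ± 0.625 FPKM (limma adjusted p = 5.83e-05), and its fellow subunit gene Vps37a from 7.91 ± 0.163 to 6.73 ± 0.223 (limma adjusted p = 0.0102). Pdcd6ip, which encodes ALIX, fell from 37.3 ± 0.609 to 33.1 ± 0.481 FPKM (limma adjusted p = 0.00954), while Vps28 rose from 22.2 ± 0.423 to 26.6 ± 2.08 (limma adjusted p = 0.00785). The Vps28 call is absent from the authors' deposited table, with a fold of 1.11 and an adjusted p of 0.21. Tsg101, the subunit that Arrdc1 binds, was at 35.4 ± 1.14 and 36.9 ± 1.07 (limma adjusted p = 0.348).

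AMPK, the energy-sensing kinase that phosphorylates Txnip protein and marks it for degradation, had 3 of 5 tested subunit genes lowered and 0 raised, with a median log2 change of -0.17 (limma, also 0 raised at an unadjusted p under 0.05). Prkab1 fell from 16.2 ± 0.578 to 13.3 ± 0.849 FPKM (-0.26 ± 0.06, limma adjusted p = 0.0049). The call of Prkaa1 (limma adjusted p = 0.0168) ended without PBS replicate 1 (0.0742) or exosome replicate 2 (0.0572). That of Prkab2 (0.0286) ended without each library in turn except exosome replicate 3 (0.0609 to 0.0863) and with the replicate block (0.0705), so the list held 1 to 3 lowered genes across those fits. Prkag1 was at 21.7 ± 1.98 and 22.9 ± 2.57 FPKM (limma adjusted p = 0.486). Of 4 genes for Mlx and its dimer partners 1 rose and 1 fell, with a median of 0.00. Mxd4, a repressor of the Myc network, rose from 17.1 ± 1.25 to 22.5 ± 0.984 FPKM (0.38 ± 0.06, limma adjusted p = 0.00101). The call of Mnt as lowered (limma adjusted p = 0.0392) ended without the filter on low values (0.0615), with the replicate block (0.067) and without PBS replicate 1 (0.0831), PBS replicate 2 (0.111), exosome replicate 1 (0.125) or exosome replicate 2 (0.0765). Mxd1 was at 2.72 ± 0.265 and 2.95 ± 0.280 FPKM (limma adjusted p = 0.406).

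Of the other arrestins and the arrestin-fold retromer subunits, Arrdc5 was listed at 0 in all 6 libraries, and 1 of 3 tested genes fell, with a median of 0.03. That gene was Vps26a, from 37.2 ± 1.44 to 29.9 ± 1.77 FPKM (limma adjusted p = 0.00193). The beta-arrestin gene Arrb2 was at 2.99 ± 0.252 and 3.06 ± 0.105 (limma adjusted p = 0.768), and Vps26b at 7.85 ± 0.398 and 8.70 ± 0.672 (limma adjusted p = 0.127). Among partners and cargo 2 of 3 tested genes fell, with a median of -0.39. Ddit4, a stress-induced mTORC1 inhibitor that binds Txnip, fell from 45 ± 3.58 to 31.4 ± 1.85 FPKM (-0.50 ± 0.07, limma adjusted p = 0.000357). Slc11a2, the iron importer DMT1 that Arrdc4 acts on, fell from 6.25 ± 0.320 to 4.52 ± 0.323 (limma adjusted p = 0.0012). Insr, the insulin receptor gene, was at 5.87 ± 0.369 and 6.32 ± 0.319 (limma adjusted p = 0.251). Nlrp3, whose inflammasome protein Txnip can bind, was at 0.0403 ± 0.0177 FPKM with PBS and listed at 0 in all exosome libraries. That was too low for the limma test. In the authors' deposited table its mean normalized counts were 4.18 for PBS and 0 for exosomes, with an adjusted p of 0.0431.

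**Figure D5:**
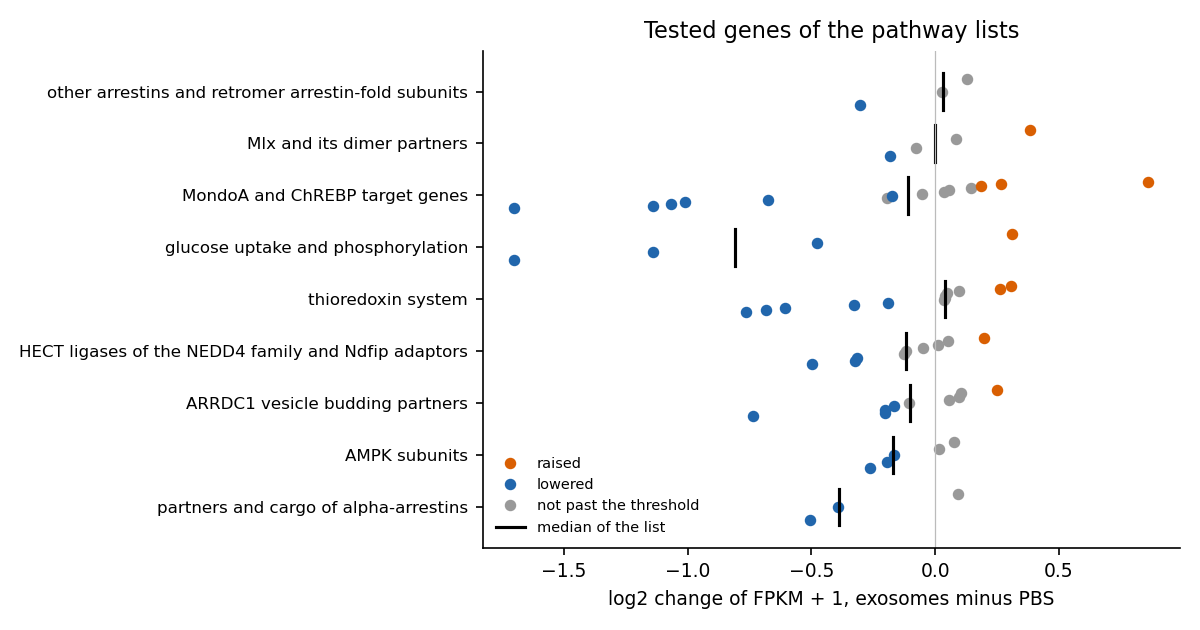
log2 change of FPKM + 1, exosomes minus PBS (horizontal axis), for each tested gene of the pathway lists, 1 list per line, coloured by call, with the list median as a black bar. The median is lowest for glucose uptake and phosphorylation, at -0.81, where Hk2 and Slc2a1 also count among the MondoA and ChREBP targets.

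The spaced pair seen before Txnip was followed to the other genes that hold it. Besides Txnip 7 such genes were tested, of which 1 rose, 1 fell and 5 did not pass, with a median log2 change of 0.11. Man2b2, a lysosomal mannosidase gene, rose by 0.38 ± 0.05 (limma adjusted p = 0.000495), and Fnip1, a folliculin partner gene, fell by 0.37 ± 0.06 on the log2 scale (limma adjusted p = 0.000778). Among 8351 tested genes with a RefSeq promoter, 25.1% were raised and 18.4% lowered. These shares were 19.9% and 23.1% of 869 tested genes with an E-box, 23.1% and 20.3% of 720 with CACGAG, and 26.4% and 17.0% of 3464 with CCAAT. A match describes letters and does not show that a factor binds there.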

How the data were processed

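mRNA libraries came from a stranded TruSeq kit and were read from both ends, per the labels' protocols. Build mm9 and the tools Cufflinks, DESeq, HTSeq, HISAT2, Bowtie2, SAMtools, Trimmomatic and StringTie stand in the submitters' processing notes, without versions or roles. Per library the authors deposited expression values, read here as FPKM because the notes name Cufflinks and column sums differ (296751 to 313048). The authors' deposited table also gives mean normalized counts (a signal per group), a linear fold (ratio) and DESeq p-values. Read counts of single libraries were not analysed here, so depth per library is unknown and no count model was fitted.

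Columns were matched to samples by sample number. 27 gene names turned into dates were repaired by Entrez identifier. The 10274 genes that reached 1 FPKM in 3 or more libraries were tested on log2(FPKM + 1) with limma 3.58.1 in R 4.3.3 (trend, robust, group as the only term, two-sided, Benjamini-Hochberg), after a check on simulated data. It recovered 3.9% of log2 changes of 0.25, 84% of those of 0.5 and 98.7% of those of 1. Only 200 genes were changed in it, a smaller share than was called in the data, so these rates may differ here. Changes are exosomes minus PBS. Members and lists were chosen with earlier results of these data known. Per pathway list, up to 4 genes of smallest p were named, and others named were chosen after their values were seen. The 5 genes nearest to Txnip and Arrdc4 were named by rule. Alternatives changed the pseudocount, filter, scaling, variance model, replicate block and libraries. Proteins were not analysed here. Promoters come from RefSeq, build GRCm38.p6, and no coordinate of the files' build is given.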

Additional observations from a re-analysis of the deposited data

How the results depend on the processing

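None of the 6 tested members changed direction under the alternatives run. Of 35 called list genes 0 turned in the authors' deposited table, but 6 of 26 that did not pass did, Itch, Txn2 and Arrb2 among them (folds of 0.982, 0.979 and 0.952). The call of Arrdc2 was kept under all 13 alternatives, Mlxip passed the threshold under none of 14, and the Txnip change stayed between 1.28 and 1.89. Arrdc1 (log2 change 0.45, adjusted p = 0.1) and Arrdc4 (0.48, adjusted p = 0.0758) were not called in the authors' deposited table. Arrdc4 also lost its call without the filter on low values (0.35, adjusted p = 0.0973). With each library left out in turn the change ranged from 0.32 to 0.44 for Arrdc1, 0.38 to 0.50 for Arrdc2, -0.19 to -0.14 for Arrdc3, 0.24 to 0.46 for Arrdc4 and -0.14 to -0.04 for Mlxip. The calls of Arrdc3 and Arrdc4 each ended in 4 of these 6 fits. Fewer samples enter those fits, and for the other losses the cause was not tested. Arrdc1, Arrdc2 and Arrdc4 have no value with at least 5 FPKM, and Mlxipl has none in the main test. With the replicate block, 2288 genes were raised and 1626 lowered, against 2612 and 1889 without it, and the 5 tested members beside Txnip kept their side of the threshold. The numbers were not taken to pair libraries: deviations from the group means correlated across genes at -0.12, -0.0212 and -0.295 for same-numbered libraries, and 0 of 3 correlated best with its own number. Counts of raised genes ranged from 1813 to 2653 and of lowered genes from 1403 to 2140. Median centring made raised genes 54.3% of calls and the filter of 5 FPKM 52.9%, against 58.0%; in the authors' deposited table raised genes were the minority, at 47.9%. Depth per library is unknown, which limits Mlxipl and Nlrp3 most.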
